A study of Mus musculus with 10 samples.

Results

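*H2az2*, which encodes a variant of the histone H2A.Z, lay in a stretch of mouse chromosome 11 that holds many genes of unrelated function. The genes described here are the rows of the deposited count table on chromosome 11 with a start between positions 3000000 and 9500000 of mm10 (GRCm38), leaving out *H2az2* itself and 2 further genes of the window, *Igfbp3* and *Uqcr10*. This gave 106 of the 23080 genes in the table, of which 81 are protein coding, 16 are pseudogenes and 9 are other noncoding RNAs. Their distances were measured from the start of *H2az2* at position 6427229, where start is the lower coordinate whatever the strand. On the centromere side there were 87 members, and 19 lay on the telomere side, where no member starts in the 1.32 Mb after the start of *Adcy1*.

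The libraries were bulk RNA-seq of the anterior fontanelle (AF), the membranous gap between the frontal and parietal bones, at E18.5, late in gestation. The excised region held suture connective tissue and bone, with skin and brain removed. The 5 control libraries are labelled WT. The 5 mutant libraries are labelled Wnt1-Cre; Fgfr2fl/fl, a knockout of the fibroblast growth factor receptor gene *Fgfr2* in neural crest cells (NCCs), in which Cre is driven by *Wnt1* regulatory sequence and acts in the neural crest and the tissues it forms. The labels do not say whether the controls carried the Cre transgene or a floxed allele. Total counts were 20774667 to 28515434 per library, of which 18.6% to 33.5% fell on a single ribosomal RNA gene, CT010467.1. Counts of *Fgfr2* were higher in the mutants, with 199.5 ± 21.6 CPM (TMM-normalized counts scaled to a common library total, SD, n = 5) in the controls and 318.5 ± 32.8 CPM in the mutants. A gene-level count does not separate recombined from intact transcripts, so the rise neither bears out nor contradicts the labels. Libraries are named here by their labels, as control-labelled and mutant-labelled.

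A transgene that inserts into a gene can lower that gene's transcript and can also alter genes beside it. A mouse line made by such an insertion keeps a stretch of the founder strain's chromosome around the transgene through later crosses, and sequence differences in that stretch can shift the transcripts of linked genes. The formal name of the widely used *Wnt1-Cre* transgene records *H2az2* as the gene that carries it. The comparison here asks whether the genes around *H2az2* differed between the labels, and whether those differences were larger close to it. The mutant label holds both the transgene and the floxed allele, and the control label does not say whether either was present. Effects of the transgene, its linked strain sequence and the floxed allele therefore cannot be told apart here.

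*H2az2*, the reference point of the window, is given first as a description. Its level in the control-labelled libraries 1 to 5 was 25.3, 27.7, 26.7, 29.8 and 27.7 CPM. In the mutant-labelled libraries 1 to 5 it was 12.9, 14.1, 14.6, 14.9 and 12.7 CPM. All mutant-labelled libraries lay below all control-labelled libraries, and the mean fell by 49.6% (log2 fold change −0.99, SE 0.066, 95% interval −1.13 to −0.84, adjusted p = 9.09e-05 by edgeR's quasi-likelihood test). In bulk tissue, fewer cells that transcribe a gene and less RNA per cell cannot be told apart.

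To show the regulatory sequence on either side of the reference point, the 250 bases before the RefSeq start (GRCm38.p6) of *H2az2* and of the nearest coding gene on each side are printed below, in the direction of transcription. Capitals mark exact matches to the GC box (GGGCGG or its reverse complement CCGCCC), the CCAAT box (CCAAT or ATTGG) and the TATA box (TATAAA or TTTATA), with overlapping matches each counted. *Ppia* is on the plus strand at chr11:6415617-6415866, *H2az2* on the minus strand at chr11:6444444-6444693 and *Purb* on the minus strand at chr11:6476077-6476326.
Ppia: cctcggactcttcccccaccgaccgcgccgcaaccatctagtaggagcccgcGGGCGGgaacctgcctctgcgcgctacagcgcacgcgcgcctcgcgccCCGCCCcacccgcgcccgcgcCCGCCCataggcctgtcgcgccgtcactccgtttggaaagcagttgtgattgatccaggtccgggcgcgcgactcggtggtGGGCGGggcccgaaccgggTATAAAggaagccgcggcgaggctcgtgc
H2az2: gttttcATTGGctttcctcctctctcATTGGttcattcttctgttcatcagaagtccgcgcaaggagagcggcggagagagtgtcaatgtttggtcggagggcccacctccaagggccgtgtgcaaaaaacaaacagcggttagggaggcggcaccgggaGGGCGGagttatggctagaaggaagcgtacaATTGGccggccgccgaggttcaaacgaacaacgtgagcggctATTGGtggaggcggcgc
Purb: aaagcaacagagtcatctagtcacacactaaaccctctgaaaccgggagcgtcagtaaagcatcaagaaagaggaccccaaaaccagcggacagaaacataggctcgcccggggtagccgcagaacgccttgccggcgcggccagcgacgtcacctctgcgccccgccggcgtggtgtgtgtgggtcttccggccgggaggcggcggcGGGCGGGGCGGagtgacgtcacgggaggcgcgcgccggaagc

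The *Ppia* stretch held 4 GC boxes, 1 TATA box and no CCAAT box, the *H2az2* stretch 1 GC box and 4 CCAAT boxes, and the *Purb* stretch 2 GC boxes. Their GC contents were 72.4%, 57.2% and 66.0%. RefSeq promoter entries were found for 70 of the 106 members. A GC box stood in 58.6% of these against 32.9% of all 27025 gene promoters of the same length, a CCAAT box in 28.6% against 34.5%, and a TATA box in 7.14% against 13%. The median GC content was 59.2% in the members' stretches and 52% over all promoters. The sets are not alike, since the members all had counts here while the 27025 promoters were not limited to genes in the count table. For members the entry nearest the annotated start was used, and for all promoters the first listed per gene. These matches describe the letters only.

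Of the 106 members, 83 passed the filter on low counts that left 16267 genes of the whole table for testing, and 71 of these are protein coding. The 23 members that were not tested, of which 10 are protein coding, held 10 to 98 counts over all 10 libraries. Tested members ranged from 0.338 to 342 CPM on average. No member had an adjusted p-value under 0.05, where 3 genes of the whole table did (0.0184%). The lowest adjusted p-value of a member was 0.412, for *Ppia*. DESeq2, which called 0.564% of the genes it gave an adjusted p-value, also called no member, and limma voom called none.

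At an unadjusted p-value under 0.05, edgeR passed 7 of the 83 tested members, or 8.43%, against 7.49% of all genes tested. Of these, 5 were lower in the mutant-labelled libraries (background 3.82% of all genes) and 2 were higher (background 3.68%). Without control-labelled library 4 the count was 3 (3.57% of tested members, against 5.18% of all genes in that fit), and without mutant-labelled library 4 it was 4 (4.76% against 7.92%). In the rest of chromosome 11, outside the window, 7.49% of 1175 tested genes passed the same threshold. The groups did not overlap for 1 tested member, *Nudcd3*, or 1.2% of those tested, against 1.49% of all genes. Over the 21 other fits the share of members passing ran from 3.57% to 10.8% and that of all genes from 4.07% to 8.34%. The share of members was above that of all genes in 9 of these fits, and the widest excess was with counts scaled by library size alone (9 members, 10.8% against 5.95%).

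The signs of the differences were mixed. The median log2 fold change of the tested members was −0.0040, with 45 below 0 and 38 above it, and over all genes tested it was 0.00074. The median absolute log2 fold change was 0.089 among the members, 0.082 in the rest of chromosome 11 and 0.091 over all genes. An absolute log2 fold change under 0.25 was found for 71 of the 83 members, or 85.5%, against 81.1% of all genes.

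**Figure D1:**
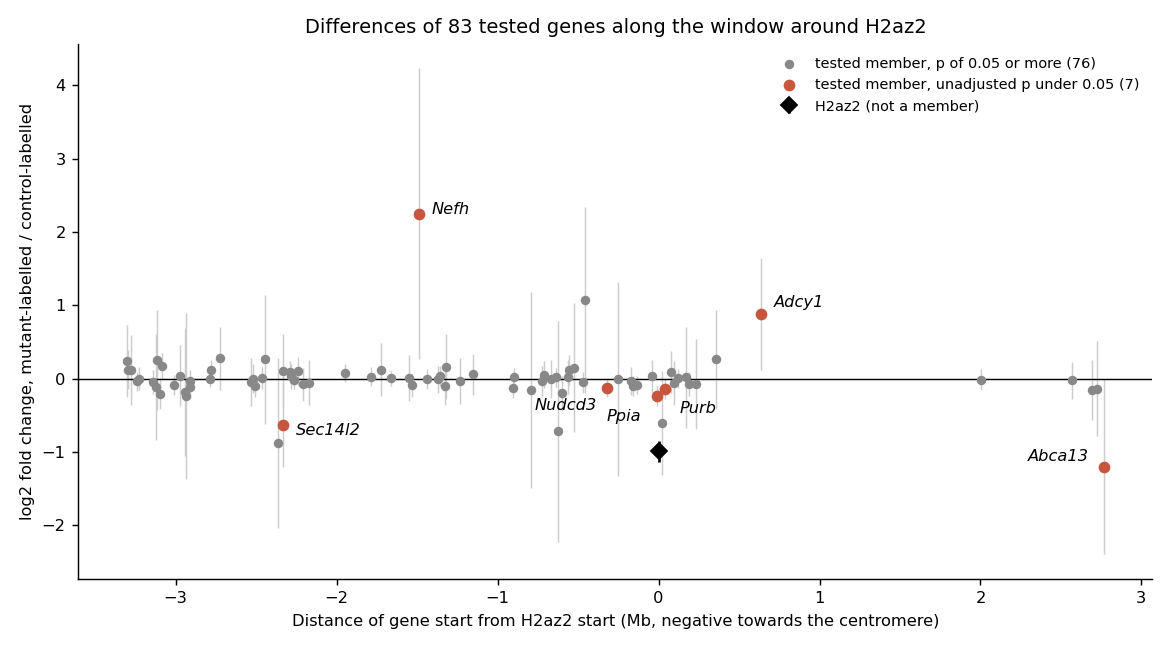
Fitted log2 fold change (mutant-labelled over control-labelled libraries, n = 5 each) of the 83 tested members against the distance of their start from the start of *H2az2* in Mb. Bars are 95% intervals. The 7 members with an unadjusted p-value under 0.05 are in red and lie on both sides of 0 and at many distances, and *H2az2* (black diamond) lies at −0.99.

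The plot of differences along the window shows that most members lay near 0 on both sides of *H2az2*, and that wide intervals belonged mostly to members at a few CPM or less, with *Rps15a-ps6* (mean 9.76 CPM, SE 0.61), *Camk2b* (13.2 CPM, SE 0.58) and *Adcy1* (23.2 CPM, SE 0.35) as exceptions. The 95% interval excluded a fall as large as that of *H2az2* for 74 of the 83 tested members. The other 9 all had wide intervals, and include the low genes *Pla2g3*, *Inpp5j*, *Sec14l3* and *Abca13*.

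The members were next grouped by distance. Within 0.2 Mb of *H2az2*, 12 of 13 members were tested, and their median absolute log2 fold change was 0.078. From 0.2 to 0.5 Mb it was 0.10 over 6 tested members, from 0.5 to 1 Mb 0.12 over 13, from 1 to 2 Mb 0.047 over 14 and over 2 Mb 0.11 over 38. There was no steady order with distance. Across the 83 tested members, which share the same libraries, the Spearman correlation of absolute log2 fold change with distance was 0.073, and across the 60 members at a mean of at least 5 CPM it was −0.014. The Spearman correlation of absolute log2 fold change with mean CPM was −0.46 over the 83 members, with larger values in low genes, which rest on fewer counts.

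**Figure D2:**
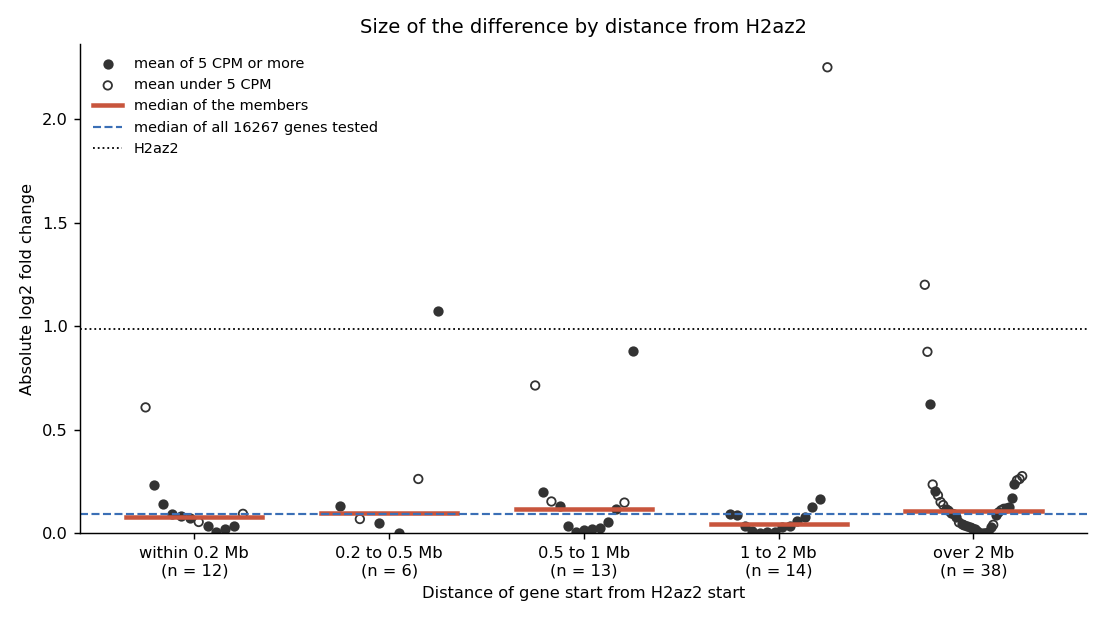
Absolute log2 fold change of each tested member by the distance of its start from that of *H2az2*. Filled points have a mean of at least 5 CPM and open points less, red lines are the medians of the members, the dashed line is the median of all 16267 genes tested (0.091) and the dotted line is *H2az2* (0.99). Medians in the 5 distance groups run from 0.047 to 0.12, on both sides of that of all genes.

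The plot by distance group shows medians on both sides of the whole-table value of 0.091, the lowest at 1 to 2 Mb (0.047), with single members far above it in each group. Taking the 18 tested members within 0.5 Mb together, the median absolute log2 fold change was 0.078 and the median log2 fold change −0.05, with 12 below 0 and 6 above. The signed median was −0.0045 without mutant-labelled library 1 (9 of 18 below 0), −0.0096 without control-labelled library 1 and −0.088 with the neuron markers in the fit (16 of 18 below 0). The 31 tested members within 1 Mb had a median absolute value of 0.082 and the 52 beyond 1 Mb one of 0.09. Leaving out mutant-labelled library 2 moved the value within 0.5 Mb to 0.145, and leaving out mutant-labelled library 3 moved it to 0.124. Over all genes tested the same omissions gave 0.0876 and 0.0969, and over the members beyond 1 Mb they gave 0.108 and 0.07. The order of near and far members was not stable. The value within 0.5 Mb was above that beyond 1 Mb in 12 of the 21 other fits and above that of all genes in 10, although below both with all libraries in the main comparison. Whether differences were larger in size close to *H2az2* therefore depended on the libraries and settings used. Their sign was steadier. The median log2 fold change within 0.5 Mb was below 0 in the main comparison and in each of the 21 other fits (−0.088 to −0.0045). These fits share most of their libraries and are not independent.

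Within 0.5 Mb, 3 of the 18 tested members passed an unadjusted p-value of 0.05, *Ppia*, *Purb* and *Nudcd3*, and all 3 were lower in the mutant-labelled libraries, with a background of 3.82% for that direction. None was higher. In either direction the share was 16.7%, against 5.77% of the 52 tested members beyond 1 Mb and 7.49% of all genes. The near and the far share each rest on 3 members. The count of lower members within 0.5 Mb was 1 without control-labelled library 1, 4 or 5 and without mutant-labelled library 3 or 4. Without mutant-labelled library 3, 1 member was higher, *Camk2b*. For 16 of the 18, the 95% interval excluded a fall as large as that of *H2az2*, and the exceptions were the pseudogenes *Gm11970* and *Rps15a-ps6*.

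*Ppia* was the member nearest to *H2az2* by start. It encodes cyclophilin A, an abundant peptidyl-prolyl isomerase that helps proteins fold and is often used as a reference gene. It starts 11.8 kb on the centromere side, and 7.41 kb separate the edges of the genes. The control-labelled libraries 1 to 5 had 174.7, 189.9, 198.7, 197.2 and 211.9 CPM. The mutant-labelled libraries 1 to 5 had 164.8, 177.5, 155, 157.1 and 173.5 CPM. The groups overlapped only through control-labelled library 1, which lay below mutant-labelled library 2. The means were 194.5 ± 13.6 and 165.6 ± 9.87 CPM (SD, n = 5 each), a difference of −14.8% or −0.23 on the log2 scale (SE 0.063, 95% interval −0.37 to −0.09). The unadjusted p-value of 0.00341 did not pass adjustment over all genes (adjusted p = 0.412 by edgeR), and a two-sided exact permutation test on mean log2 CPM gave an unadjusted p = 0.0159. DESeq2 gave an adjusted p-value of 0.0702. *Ppia* was the only one of the 7 members with an unadjusted p-value under 0.05 to stay under it in all 21 other fits. It has many processed copies in the genome, so how the authors' counting shared reads between them bears on its counts and makes them uncertain.

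On the telomere side, the nearest tested member was *Gm11970*, a processed pseudogene that starts 19.0 kb from the start of *H2az2* and lies 1.77 kb beyond its end. It had 0.446 to 1.48 CPM in the control-labelled libraries and 0.486 to 0.697 CPM in the mutant-labelled libraries. The ranges overlapped, and with 11 to 35 counts per library the difference of −0.61 (SE 0.32) rests on little depth. It was −0.38 without control-labelled library 5 and −0.78 without library 2 (unadjusted p = 0.0196, adjusted p = 0.548 by edgeR).

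*Purb*, which encodes a single-stranded DNA- and RNA-binding repressor of smooth muscle genes, starts 40.4 kb on the telomere side. Its level in the control-labelled libraries 1 to 5 was 110.3, 104.3, 102.0, 115 and 103.8 CPM. In the mutant-labelled libraries 1 to 5 it was 103.6, 98.7, 97.3, 84.9 and 100.8 CPM. The groups overlapped through mutant-labelled library 1, and library 4 was the lowest. The difference was −0.14 (SE 0.061, 95% interval −0.28 to −0.01, unadjusted p = 0.0392 and adjusted p = 0.653 by edgeR), and the exact permutation p was 0.0159. Leaving out mutant-labelled library 4 moved it to −0.089 (unadjusted p = 0.103, adjusted p = 0.68 by edgeR), and the osteoblast markers in the fit moved it to −0.062. *Purb* shares exon bases with the antisense RNA *Gm11973*, and no source says that reads were counted by strand.

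**Figure D3:**
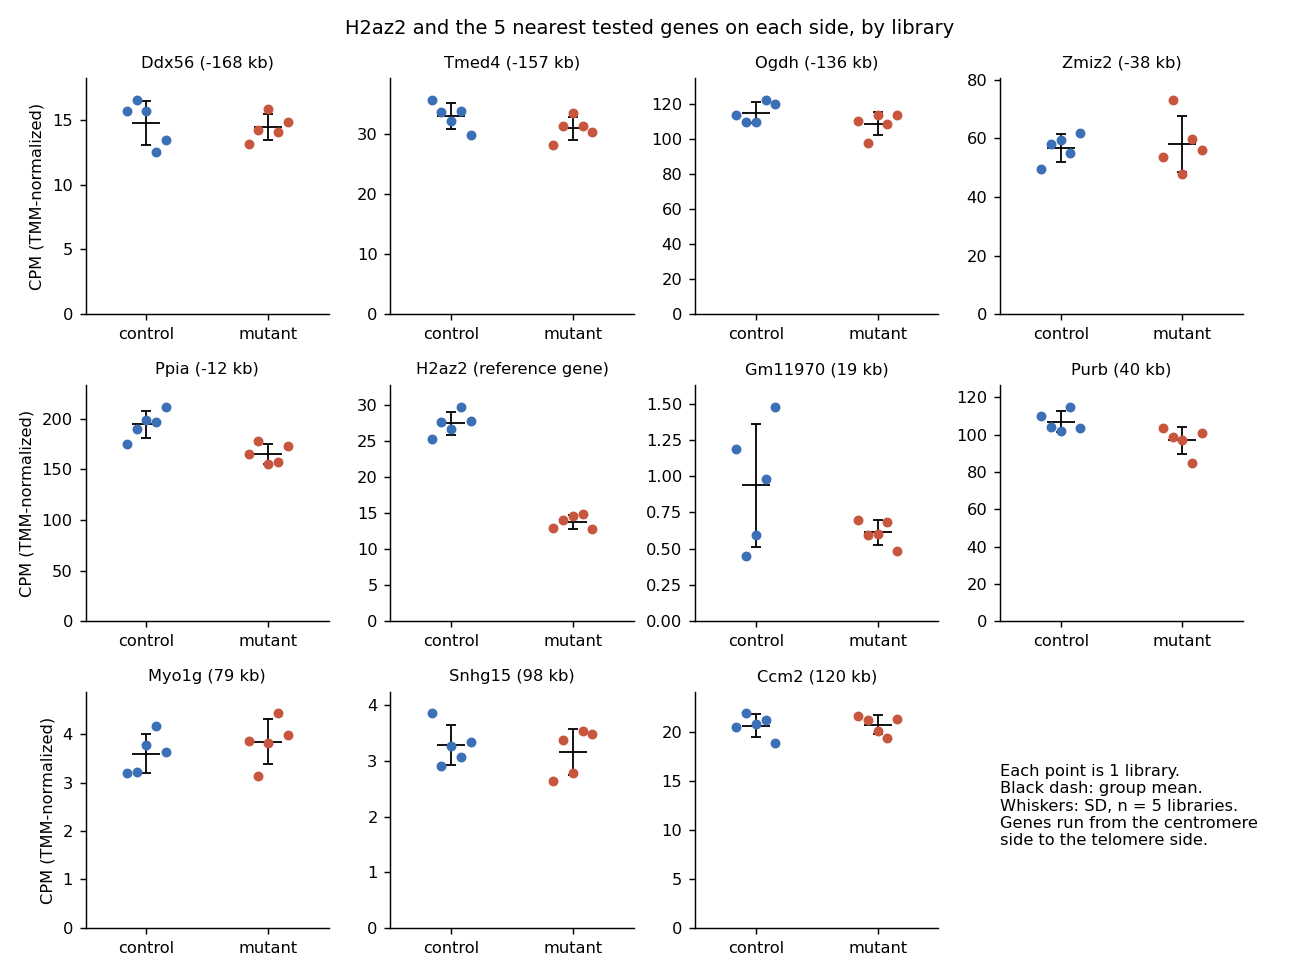
CPM of *H2az2* and of the 5 nearest tested members on each side, ordered from the centromere side to the telomere side, with 1 point per library, the group mean and its SD (n = 5). Control-labelled and mutant-labelled libraries are apart for *H2az2* and overlap in every other panel.

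The panels of the nearest genes show the contrast between *H2az2* and its neighbours. *Zmiz2*, which encodes a coactivator with a SUMO ligase-like domain, starts 38.2 kb on the centromere side and had 56.8 ± 4.75 CPM in the control-labelled and 58.1 ± 9.43 CPM in the mutant-labelled libraries (0.03, SE 0.10). *Ogdh*, a subunit of the mitochondrial oxoglutarate dehydrogenase complex, starts 136 kb away and had 115.2 ± 5.82 and 108.8 ± 6.61 CPM (−0.08, SE 0.057). *Tmed4*, a cargo receptor of the early secretory pathway, had 32.9 ± 2.19 and 30.9 ± 1.96 CPM (−0.09, SE 0.062). All of these differences lay within 2 standard errors of 0.

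*Ddx56*, an RNA helicase of the nucleolus, starts 168 kb away and had 14.8 ± 1.69 and 14.4 ± 1.00 CPM (−0.04, SE 0.088). On the telomere side, *Ccm2*, a scaffold protein needed in endothelium, had 20.6 ± 1.14 and 20.7 ± 0.961 CPM (0.01, 95% interval −0.12 to 0.13). *Myo1g*, a myosin of blood cells, and the small nucleolar RNA host gene *Snhg15* were near 3 to 4 CPM in both groups, with log2 fold changes of 0.09 (SE 0.13) and −0.05 (SE 0.14). None of these 7 genes, *Zmiz2* to *Snhg15*, passed an unadjusted p-value of 0.05.

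*Nudcd3*, a cochaperone that stabilizes dynein intermediate chain, starts 322 kb on the centromere side. The control-labelled libraries 1 to 5 lay close together at 39.9, 40.8, 40.4, 40.1 and 39.9 CPM. The mutant-labelled libraries 1 to 5 had 39.6, 39.0, 37.8, 34.3 and 33.1 CPM. The groups did not overlap, but the lowest control-labelled and the highest mutant-labelled library differed by less than 1 CPM. The difference was −0.13 (SE 0.056, 95% interval −0.25 to −0.01, unadjusted p = 0.04, adjusted p = 0.653 by edgeR). The exact permutation p of 0.00794 is the smallest that 5 against 5 libraries can give. With counts scaled by library size alone, no member was free of overlap, against 1.19% of all genes under that scaling.

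The remaining 4 members with an unadjusted p-value under 0.05 were farther away, and for each of them, as for *Purb*, leaving out 1 library changed the log2 fold change by over 1.5 times. *Adcy1*, an adenylyl cyclase of neurons that makes cyclic AMP, starts 0.64 Mb on the telomere side. Its level was 18.6, 18.7, 17.0, 10.9 and 16.6 CPM in the control-labelled libraries 1 to 5. It was 23.1, 67.9, 19.4, 23.2 and 16.8 CPM in the mutant-labelled libraries. Mutant-labelled library 2 stood far above the rest, and the groups overlapped. The log2 fold change of 0.88 (SE 0.35, unadjusted p = 0.0278, adjusted p = 0.634 by edgeR) was 0.34 without that library (unadjusted p = 0.0466 by edgeR). The exact permutation p over all 10 libraries was 0.0397.

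Neuron markers moved with *Adcy1*. All 5 of the neuron list (*Tubb3*, *Stmn2*, *Snap25*, *Elavl4* and *Nefl*) were detected, 1 of them was higher at an unadjusted p-value under 0.05, and their summed level was 35.9 to 90.1 CPM in the control-labelled and 40.1 to 309 CPM in the mutant-labelled libraries. Mutant-labelled library 2 had the highest sum, and it also had the lowest sum of the 11 osteoblast markers (54170 CPM, against 65010 to 78550 CPM in the others). Cell type markers also moved between the groups as a whole. At an unadjusted p-value under 0.05, 7 of 11 osteoblast markers were lower in the mutant-labelled libraries (median log2 fold change −0.33). Their sums, in which abundant markers weigh most, overlapped, and mutant-labelled library 5 had the highest (66210 to 77840 CPM against 54170 to 78550 CPM). Of the fontanelle connective tissue markers 4 of 4 were higher (median 0.47), and of the chondrocyte markers 1 of 5. Neither list's sums overlapped between the groups, at 148.4 to 179.2 CPM against 199.4 to 277.6 CPM and at 248.4 to 324.6 CPM against 334.4 to 380.1 CPM. With the neuron markers in the fit the *Adcy1* difference was 0.28 (unadjusted p = 0.236, adjusted p = 0.926 by edgeR), and with the osteoblast markers it was −0.29 (unadjusted p = 0.446). The part of nerve tissue in the result was otherwise not tested.

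*Camk2b*, singled out after its values were seen, encodes a calcium- and calmodulin-dependent kinase subunit of brain and muscle and starts 0.46 Mb on the centromere side. It had 3.60 to 11.8 CPM in the control-labelled libraries. It had 8.13, 49.7, 3.77, 17.9 and 10.2 CPM in the mutant-labelled libraries 1 to 5, with library 2 again the highest. Its log2 fold change of 1.07 (SE 0.58, unadjusted p = 0.091, adjusted p = 0.691 by edgeR) was the largest in size among the 18 tested members within 0.5 Mb. It was 0.23 without mutant-labelled library 2, 1.34 without library 3 (unadjusted p = 0.0239, adjusted p = 0.574 by edgeR) and 1.09 without library 4. With the neuron markers in the fit it was −0.11 and with the osteoblast markers −0.88.

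*Nefh* encodes the heavy neurofilament subunit of axons and starts 1.49 Mb on the centromere side. It had 0.240 to 0.761 CPM in the control-labelled libraries. Mutant-labelled library 1 had 8.68 CPM and the other 4 had 0.385 to 0.681 CPM. The log2 fold change of 2.25 (SE 0.91, unadjusted p = 0.0292, adjusted p = 0.634 by edgeR) became 0.22 without that library (p = 0.565), and the exact permutation p was 0.254. The neuron markers summed to 133.9 CPM in mutant-labelled library 1, and with the neuron markers in the fit the log2 fold change was 0.98 (SE 1.00, unadjusted p = 0.345, adjusted p = 0.964 by edgeR).

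*Sec14l2*, a lipid-binding protein that takes part in vitamin E and sterol handling, and *Abca13*, a very large ABC transporter, were lower in the mutant-labelled libraries. *Sec14l2* had 4.34, 4.97, 10.9, 4.82 and 5.62 CPM in the control-labelled libraries and 2.82 to 5.34 CPM in the mutant-labelled libraries. *Abca13* had 0.593, 2.47, 4.89, 0.899 and 1.31 CPM in the control-labelled libraries and 0.342 to 1.27 CPM in the mutant-labelled libraries. Control-labelled library 3 was the highest for both genes, and for both the groups overlapped. Without it the log2 fold change moved from −0.63 to −0.31 for *Sec14l2* (adjusted p = 0.813 by edgeR) and from −1.20 to −0.58 for *Abca13* (adjusted p = 0.841). With all libraries the unadjusted p-values were 0.0349 and 0.0492, and the adjusted ones 0.645 and 0.659.

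**Figure D4:**
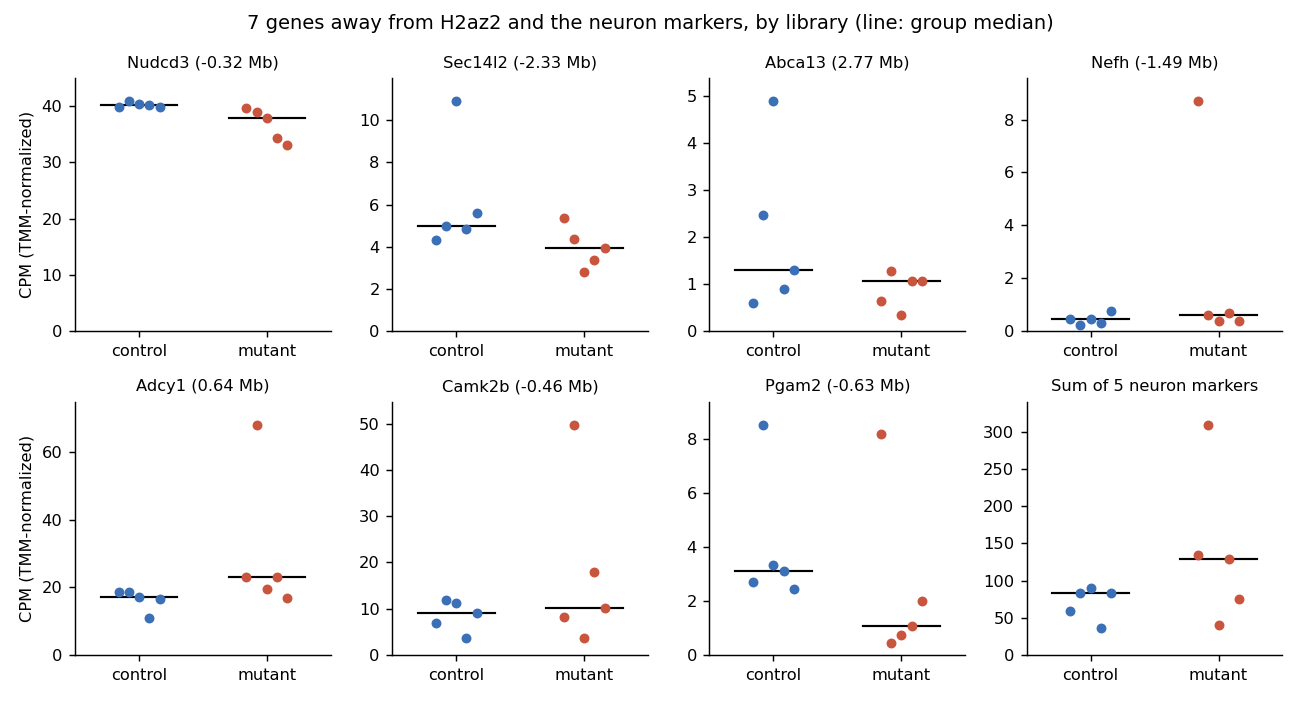
CPM by library (points, with the group median as a line) of *Nudcd3*, *Sec14l2*, *Abca13*, *Nefh*, *Adcy1*, *Camk2b* and *Pgam2*, and the summed CPM of 5 neuron markers. For *Sec14l2*, *Abca13*, *Nefh*, *Adcy1* and *Camk2b*, 1 library stands above the rest of its group, and mutant-labelled library 2 is the highest for *Adcy1*, *Camk2b* and the neuron markers.

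*Pgam2*, the muscle form of phosphoglycerate mutase, is shown in the same plot and was singled out after its values were seen. It had 8.51 CPM in control-labelled library 2 and 8.17 CPM in mutant-labelled library 1, and 0.437 to 3.32 CPM in the other 8. The same 2 libraries had 712.5 and 707.9 CPM over the 6 skeletal muscle markers, against 17.4 to 140.3 CPM in the others, and the part of muscle in the *Pgam2* levels was not tested. The log2 fold change of *Pgam2* was −0.71 (SE 0.69), −0.23 without that control-labelled library and −1.93 without that mutant-labelled library (unadjusted p = 0.00249, adjusted p = 0.507 by edgeR).

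The members were also described by role, with some genes in more than 1 list, and each count is to be read against 3.82% of all genes for the lower and 3.68% for the higher direction. Of the 2 genes that control WNT receptors, neither passed an unadjusted p-value of 0.05. *Kremen1*, a receptor for the WNT antagonist Dickkopf, had 84.0 ± 17.7 and 82.0 ± 12.6 CPM (−0.04, SE 0.14). *Znrf3*, a ubiquitin ligase that removes Frizzled receptors from the cell surface, had 14.3 ± 2.17 and 14.9 ± 2.22 CPM (0.06, SE 0.13).

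Among 6 cytokines and secreted or membrane receptors, 4 were tested and none passed in either direction. *Lif*, a cytokine that acts on bone cells through the receptor subunit gp130, had 2.78 ± 0.305 and 2.68 ± 0.328 CPM (−0.05, SE 0.14). *Osm*, a related cytokine, had 4 to 14 counts per library and was not tested. *Emid1*, an extracellular matrix protein, had 10.7 ± 3.33 and 12 ± 2.36 CPM (0.16, SE 0.20). Its difference was 0.38 without control-labelled library 2 (unadjusted p = 0.04, adjusted p = 0.598 by edgeR) and 0.059 without library 5. *Ramp3*, a partner of calcitonin-family receptors, and *Pla2g3*, a secreted phospholipase, were below 2 CPM.

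Of 12 tested kinases, phosphatases and second messenger genes, 1 was higher at an unadjusted p-value under 0.05, *Adcy1*. *Limk2*, a kinase that acts on the actin-severing protein cofilin, had 23.7 ± 2.59 and 26.7 ± 2.01 CPM (0.17, 95% interval −0.01 to 0.34, unadjusted p = 0.0571, adjusted p = 0.663 by edgeR). With the neuron markers in the fit its difference was 0.10 and with the osteoblast markers 0.02. *Pik3ip1*, an inhibitor of phosphoinositide 3-kinase, had 51.2 ± 5.68 and 44.4 ± 5.75 CPM (−0.21, 95% interval −0.42 to 0.01, unadjusted p = 0.0569, adjusted p = 0.663 by edgeR). The same fits gave −0.12 and 0.0041 for *Pik3ip1*. Both *Limk2* and *Pik3ip1* lay over 3 Mb from *H2az2*, and neither passed. The lipid phosphatase *Mtmr3* (0.08, SE 0.057) and the GTPase *Drg1* (−0.04, SE 0.057) were within 2 standard errors of 0.

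None of the 10 genes of RNA handling and translation passed, and their log2 fold changes ran from −0.09 to 0.13. They include the splicing factor *Sf3a1* (62.1 ± 2.30 and 61.2 ± 4.42 CPM), the translation regulator *Eif4enif1* (40.2 ± 3.52 and 40.2 ± 2.75 CPM), the ribosome assembly factor *Pes1* and *Ascc2*, a component of a ribosome rescue complex. Among 9 nuclear factors, 1 was lower, *Purb*. *Ewsr1*, an RNA-binding protein, had 120.9 ± 5.13 and 123.8 ± 9.77 CPM (0.03, SE 0.061). *Xbp1*, a transcription factor of the unfolded protein response that secretory cells use, had 87.8 ± 3.40 and 80.2 ± 6.5 CPM (−0.13, SE 0.060) and just missed the threshold (unadjusted p = 0.0503, adjusted p = 0.659 by edgeR). Its log2 fold change was −0.08 with the neuron markers in the fit and 0.01 with the osteoblast markers.

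Of the 9 tested genes of mitochondria and metabolism, 1 was lower, *Sec14l2*. The selenoprotein *Selenom* had 57.3 ± 2.60 and 52.8 ± 4.95 CPM (−0.12, SE 0.067), and the mitochondrial genes *Tbrg4* and *Mrps24* had log2 fold changes of −0.07 and −0.03. Of 14 genes of the cytoskeleton, adhesion and membrane traffic, 1 was higher, *Nefh*, and 1 was lower, *Nudcd3*. *Smtn*, a smooth muscle actin-binding protein, had 83.6 ± 5.76 and 82.0 ± 6.68 CPM. *Ykt6*, a SNARE protein of vesicle fusion, had a log2 fold change of −0.05 (SE 0.065). *Nf2*, the tumour suppressor merlin, had 66.0 ± 1.53 and 66.1 ± 2.87 CPM, and its interval of −0.09 to 0.10 was the narrowest of the 83 tested members. Of 6 genes of protein folding and ubiquitin, 2 were lower, *Ppia* and *Nudcd3*, while the ubiquitin ligases *Rnf185* and *Rnf215* had log2 fold changes of −0.09 and 0.09. In every list the share that passed rests on 0 to 2 genes.

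Single calls at an unadjusted p-value of 0.05 varied with the libraries. When each of the 10 libraries was left out in turn, *Ppia* passed in 10 of 10 fits, *Adcy1* in 9, *Nefh* and *Sec14l2* in 6, *Abca13* in 4, *Purb* in 3 and *Nudcd3* in 2. Of the named members that did not pass with all libraries, *Limk2* and *Pik3ip1* passed in 3 fits, *Xbp1* in 2, and *Gm11970*, *Emid1* and *Selenom* in 1.

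The 3 members with the highest mean level were *Aebp1*, *Tns3* and *Ppia*. *Aebp1*, a collagen-binding extracellular matrix protein of connective tissue and bone, had 286.5 to 369.9 CPM in the control-labelled and 270.7 to 401.7 CPM in the mutant-labelled libraries (0.02, SE 0.10). *Tns3*, an adhesion protein that links integrins to actin, had 224.2 to 248.2 and 203.8 to 257.8 CPM (−0.01, SE 0.068). For both genes the mutant-labelled libraries spanned the whole range of the controls. Per kb of annotated exon sequence, *Aebp1* was at 83.6 CPM and *Ppia* at 55.4 CPM in the control-labelled libraries, against 16.8 CPM for *H2az2*.

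A shift of the whole stretch was looked for in each library. Over the 60 members at a mean of at least 5 CPM, the median deviation from each gene's mean log2 CPM was −0.009, 0.049, 0.032, 0.004 and −0.033 in the control-labelled libraries 1 to 5. It was −0.009, −0.033, 0.009, −0.039 and −0.017 in the mutant-labelled libraries 1 to 5. The groups overlapped, and every value was within 0.05 log2 units of 0. Over the 11015 genes at that level in the whole table, the same medians ran from −0.0287 to 0.0232.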

How the data were processed

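RNA-seq libraries of the AF at E18.5 (5 control-labelled, 5 mutant-labelled) were stranded, single-end libraries. The authors deposited 1 table of estimated counts per gene, unscaled, 67.2% of them whole numbers, with no gene below a sum of 10. The submitters' processing notes name Partek and mm10, and the aligner, counter and strand setting are not given in the sources used here. Estimated counts were rounded to whole numbers. With R 4.3.3, genes passing edgeR's expression filter (16267 kept, 6813 left out) were TMM-normalized and tested with edgeR 4.0.16's quasi-likelihood test over 10 libraries without covariates. P-values were adjusted by the Benjamini-Hochberg method across the genes kept (threshold 0.05). Intervals are 95% intervals from the fitted SE. Log2 CPM used a prior count of 0.5, and permutation tests were two-sided and exact over 252 groupings. The code was tested on simulated data.

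Alternatives were DESeq2 1.42.0, limma 3.58.1 voom, other scalings, filters and covariates, a replicate block, no ribosomal RNA genes, and leaving out each library. A neuron covariate was added after seeing the data. Named are the 5 nearest tested members on each side of *H2az2*, members with an unadjusted p-value under 0.05, the 3 highest, and up to 4 highest per role list. Members, lists and tests were chosen with earlier results of these data known. Positions of 104 of 106 members matched GENCODE M21. Exon bases shared with another gene affect 33 members, and such counts, like those of pseudogenes, are uncertain. The study describes littermate pairs, but which libraries form a pair is not given in the sources used here, and the test treats all libraries as independent.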

Additional observations from a re-analysis of the deposited data

Results flagged for a closer look

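The 82 sets of 5 libraries (41 named members in each group) were screened for a library whose gap to its nearest neighbour exceeded 0.71 of the set's range, which chance alone gives in about 1 of 20 sets. This held for 5 sets. *Adcy1* was low in control-labelled library 4 (10.9 CPM, against 16.6 to 18.7 CPM in the other 4) and high in mutant-labelled library 2 (67.9 CPM, against 16.8 to 23.2 CPM). *Nefh* was high in mutant-labelled library 1 (8.68 CPM, against 0.385 to 0.681 CPM). *Sec14l2* was high in control-labelled library 3 (10.9 CPM, against 4.34 to 5.62 CPM). *Eif4enif1* was high in mutant-labelled library 4 (45.0 CPM, against 38.5 to 39.9 CPM). *Rps15a-ps6*, a ribosomal protein pseudogene singled out after its values were seen, ranged from 1.14 to 22.3 CPM within the control-labelled libraries.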

How the results depend on the processing

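No member passed an adjusted p-value of 0.05 in any of the 21 other fits, and *H2az2* passed in all of them (log2 fold change −1.02 to −0.95). Few genes passed at all, 0.0184% of those tested in the main comparison and 0.564% with DESeq2. The absence of calls among the members therefore says little. The count of members with an unadjusted p-value under 0.05 (7) was 9 with library size alone (10.8% of tested members against 5.95% of all genes) and with no filter (8.49% against 7.03%), 3 with limma voom (3.61% against 7.32%), 4 with at least 10 counts in every library (5.56% against 7.64%), 3 with a replicate block (3.61% against 6.61%), and 3 to 7 when each library was left out. The count without overlap (1) was 0 with library size alone (all genes 1.19%), with the 10-count filter (1.56%) and without members that share exon bases (1.49%), 2 with DESeq2 (1.34%) and with no filter (1.33%), and 1 to 3 when each library was left out (1.19% to 3.61% of members, 1.91% to 2.93% of all genes). The median log2 fold change of the members was −0.0487 with library size alone, where the median of all genes was −0.0376. The median absolute log2 fold change within 0.5 Mb (0.0776) was 0.113 with library size alone (0.0836 beyond 1 Mb, 0.101 over all genes), 0.125 with limma voom (0.0911 and 0.0889), 0.159 with the osteoblast covariate (0.0911 and 0.112) and 0.059 to 0.145 when each library was left out. The osteoblast covariate turned the sign of *Ogdh* (0.041), *Adcy1* (−0.29), *Pik3ip1* (0.0041) and *Xbp1* (0.011), and the cause was not tested. Of the 857 values of the named members over the alternatives, 853 kept their side of the adjusted p-value threshold of 0.05 and their direction. A turn of sign was counted only for values more than 1 SE from 0. No named member passed that threshold in any fit, so this count says nothing of the unadjusted calls. Over the 21 other fits an unadjusted p-value under 0.05 was kept by *Ppia* in 21, *Adcy1* in 17, *Sec14l2* in 13, *Purb* in 11, *Nefh* in 10, and *Nudcd3* and *Abca13* in 8. Correlations of same-numbered libraries ran from −0.211 to 0.139 and no control-labelled library correlated best with its own number, so the numbers were not taken as pairs. The study describes littermate pairs without saying which libraries form one. Members under 1 CPM rest on few counts, and differences of the size seen at *Ppia* cannot be resolved for them at this depth.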
